A study of Homo sapiens with 12 samples.

Results

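The 45 genes examined here carry out or control sugar breakdown, glucose synthesis and the response to low oxygen. They were chosen by gene name, and were 3 glucose transporters, 11 enzymes of hexose phosphorylation and splitting, 7 of lower glycolysis, 5 of lactate and pyruvate, 3 subunits of the hypoxia-inducible factors (HIF), 7 other HIF targets, 5 oxygen sensors and other hydroxylases, and 4 enzymes of gluconeogenesis. All 45 had a row in the gene count table, which held 23583 features. After a filter on low counts 44 of them could be tested, among 16946 features. G6PC, the catalytic subunit of the liver's glucose-6-phosphatase, did not pass the filter and was at 0 in the 6 HCCLM3 libraries and at most 0.459 CPM in Huh7 (CPM are counts scaled to library size).

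RNA sequencing had been done on 2 human hepatocellular carcinoma (HCC) cell lines, each given an siRNA to the circular RNA circASH2 (si-circASH2) or the control siRNA (si-NC). The 4 groups of 3 libraries were HCCLM3 with si-circASH2, HCCLM3 with si-NC, Huh7 with si-circASH2 and Huh7 with si-NC. HCCLM3 is a line used as a model of metastatic liver cancer, and Huh7 is a line that keeps many hepatocyte traits. The study's stated interest was the part of circASH2 in metastasis. The sources used here do not give the siRNA sequence, its dose, the time after transfection or the oxygen and glucose of the cultures. They do not say either that replicates were separate cultures, so the p-values rest on a spread between libraries that may be only technical. Total counts lay between 29006781 and 30858895 per library. In CPM, 3 counts corresponded to 0.0981 to 0.105.

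Glycolysis splits glucose into pyruvate, and lactate dehydrogenase turns pyruvate into lactate when it does not enter the mitochondria. Hepatocytes run liver isozymes such as liver pyruvate kinase (PKLR) and the carboxykinase PCK1, and liver tumours often replace them with the forms that most tissues use. HIF is a pair of proteins, an oxygen-labile alpha subunit (HIF1A or EPAS1) and a stable beta subunit (ARNT). Prolyl hydroxylases of the EGLN family mark the alpha subunit for destruction when oxygen is present, so HIF activity is set mainly at the protein level. HIF binds a short core, ACGTG or GCGTG, in many of the glycolytic genes.

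The promoters of 3 members that were lower in at least 1 line and of 1 that was higher in both are shown, with each ACGTG (on either strand, where the other strand reads CACGT) in capitals. Each is 300 bases long and spans the RefSeq gene start (assembly GRCh38.p14). LDHA, lactate dehydrogenase A, is read at chr11:18394313-18394612 on the plus strand. ALDOC, aldolase C, is read at chr17:28576846-28577145 on the minus strand. BNIP3, a mitophagy receptor, is read at chr10:131981874-131982173 on the minus strand, and PCK2, the mitochondrial phosphoenolpyruvate carboxykinase, at chr14:24094061-24094360 on the plus strand.
LDHA: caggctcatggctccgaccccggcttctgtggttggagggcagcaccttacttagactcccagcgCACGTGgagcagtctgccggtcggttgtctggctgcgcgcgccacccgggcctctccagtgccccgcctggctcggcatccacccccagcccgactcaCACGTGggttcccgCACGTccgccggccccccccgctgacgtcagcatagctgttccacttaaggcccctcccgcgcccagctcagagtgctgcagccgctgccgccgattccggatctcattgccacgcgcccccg
ALDOC: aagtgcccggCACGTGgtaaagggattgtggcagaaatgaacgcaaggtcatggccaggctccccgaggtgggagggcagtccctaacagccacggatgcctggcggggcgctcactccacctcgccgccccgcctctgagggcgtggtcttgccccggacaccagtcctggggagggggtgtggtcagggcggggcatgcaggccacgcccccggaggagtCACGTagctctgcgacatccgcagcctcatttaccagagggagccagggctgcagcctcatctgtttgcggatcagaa
BNIP3: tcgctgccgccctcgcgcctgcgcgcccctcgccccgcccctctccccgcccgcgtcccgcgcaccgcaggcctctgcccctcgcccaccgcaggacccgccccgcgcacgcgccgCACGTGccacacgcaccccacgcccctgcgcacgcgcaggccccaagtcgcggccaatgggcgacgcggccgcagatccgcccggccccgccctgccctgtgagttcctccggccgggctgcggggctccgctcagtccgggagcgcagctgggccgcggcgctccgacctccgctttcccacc
PCK2: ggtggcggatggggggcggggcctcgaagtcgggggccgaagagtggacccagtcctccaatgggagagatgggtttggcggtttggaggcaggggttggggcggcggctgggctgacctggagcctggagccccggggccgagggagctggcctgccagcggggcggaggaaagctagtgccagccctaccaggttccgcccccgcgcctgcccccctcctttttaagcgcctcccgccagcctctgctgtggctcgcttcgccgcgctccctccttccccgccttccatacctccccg

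The LDHA promoter held 3 separate stretches with ACGTG, ALDOC held 2, BNIP3 held 1 and PCK2 none. The other form of the core, GCGTG, is not capitalised and was found at 1 position in LDHA, 2 in ALDOC, 4 in BNIP3 and 0 in PCK2, over both strands. Where the capitals read CACGTG, the core also lies inside the E-box that MYC and other factors bind, and a match of letters does not show that any factor was bound. Among the 41 members with a promoter entry, 15 held ACGTG (36.6%), against 5900 of all 27305 promoters (21.6%), and 18 held GCGTG (43.9%), against 36.3% of all. SLC2A3, VEGFA, NDRG1 and PCK1 had no entry in the table. Of the members past the threshold in HCCLM3, 1 of the 7 that rose and 3 of the 8 that fell held ACGTG, and in Huh7 the same was true of 0 of the 9 that rose and 4 of the 9 that fell. Among members not past the threshold the count was 10 of 25 in HCCLM3 and 10 of 22 in Huh7.

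A second short sequence is shown because 2 of the members carry it in the 3′ UTR. TTATACCA had come up in an earlier analysis of these libraries, as a sequence found in the 3′ UTRs of genes that were lower after si-circASH2. It occurs in the 3′ UTR of LDHA (chr11:18407809-18407816, plus strand, GENCODE 29 on GRCh38) and of PDK1, a kinase that shuts down pyruvate dehydrogenase (chr2:172596044-172596051, plus strand). Each is printed with 10 bases on either side, and the capitals mark the match.
LDHA site: tatccaagtgTTATACCAactaaaaccc
PDK1 site: cagaactataTTATACCAagtactttat
Of the 3′ UTRs of 19132 annotated genes 611 held TTATACCA (3.19%), and 2 of those of the 45 members. The annotated UTR of PDK1 was 12700 bases long and that of LDHA 1144. LDHA was lower in both lines and PDK1 in Huh7, and the part of this sequence in that was not tested. The sequence came from genes that fell in these same libraries, so its presence in 2 members that fell is not separate support. A count of 2 among 45 is also too small to set apart from the share of all genes.

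The libraries were checked before the comparisons. ASH2L, the host gene of the circle and a subunit of histone H3 lysine 4 methyltransferases, averaged 27.5 ± 0.969 CPM with si-circASH2 and 32.4 ± 1.59 CPM with si-NC in HCCLM3 (SD, n = 3 each), and 67.0 ± 1.33 CPM with si-circASH2 and 76.5 ± 3.21 CPM with si-NC in Huh7. The counts are per gene and cannot separate the circle from the linear transcript, so the knockdown itself was not analysed here. The 10 hepatocyte markers summed to 199 to 202 CPM with si-circASH2 and 190 to 197 CPM with si-NC in HCCLM3, where albumin (ALB) was near 3 CPM and HNF4A near 91 to 95 CPM. In Huh7 the same sum was 34040 to 34748 CPM with si-circASH2 and 37180 to 37275 CPM with si-NC. The sums did not overlap between the groups in either line. Of the 10 markers 2 rose and 0 fell in HCCLM3 (20%, against 30.6% of all features). In Huh7 1 rose and 4 fell (50%, against 31.4%). The part of these markers in the results was not tested. All 10 markers had at least 1 CPM in Huh7 and 7 of 10 in HCCLM3, so the hepatocyte label fits Huh7 and is only thinly borne out in HCCLM3. The 4 epithelial markers, led by the keratin KRT8, summed to 5474 to 5600 CPM with si-circASH2 and 5341 to 5506 CPM with si-NC in HCCLM3. In Huh7 they summed to 3611 to 3853 CPM with si-circASH2 and 2928 to 3092 CPM with si-NC, with no overlap, and 2 of the 4 rose and 1 fell there. Their part in the results was not tested. Markers of fibroblasts summed to 48.9 to 53.5 CPM with si-circASH2 and 35.6 to 37.9 CPM with si-NC in HCCLM3, and to 56.7 to 57.7 and 34.3 to 40.1 CPM in Huh7. They were led by LUM in HCCLM3 and by COL1A2 in Huh7, 1 of the 6 rose in HCCLM3 and 4 of the 6 in Huh7, and their part in the results was not tested. Endothelial markers, led by PECAM1, summed to 20 to 22.1 CPM with si-circASH2 and 26.1 to 27.9 CPM with si-NC in HCCLM3. Leukocyte markers, nearly all LYZ, summed to 301 to 326 CPM with si-circASH2 and 361 to 399 CPM with si-NC in Huh7, where the pan-leukocyte marker PTPRC was at 0 in 5 of 6 libraries. In HCCLM3 that sum stayed under 2 CPM.

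Among these genes, library 3 of the si-NC group was more often the highest of its group than the other 2 in both lines. In HCCLM3 it was the highest of the 3 si-NC libraries for 23 of the 34 members with at least 5 CPM, and exceeded the mean of the other 2 by more than 1.2-fold for PFKFB4 (1.49-fold) and NDRG1 (1.58-fold). In Huh7 it was the highest for 28 of 35 members, and exceeded the other 2 by more than 1.2-fold for 11: SLC2A1, PFKFB4, ALDOC, PGK1, ENO2, PKLR, PDK1, BNIP3, NDRG1, P4HA1 and ADM. PFKFB4 had the largest excess there (1.83-fold), followed by NDRG1 (1.57-fold). Among the si-circASH2 libraries, only library 3 of Huh7 exceeded its companions in this way, for PFKFB4, and it was the highest for 19 of 34 members. The same counts were not made over all features, so nothing here shows that the excess was particular to these genes. The comparisons below were repeated without both si-NC libraries numbered 3, a choice made after the data were seen. They were left out because members were high in them, so a call gained in that fit is not separate support.

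**Figure D1:**
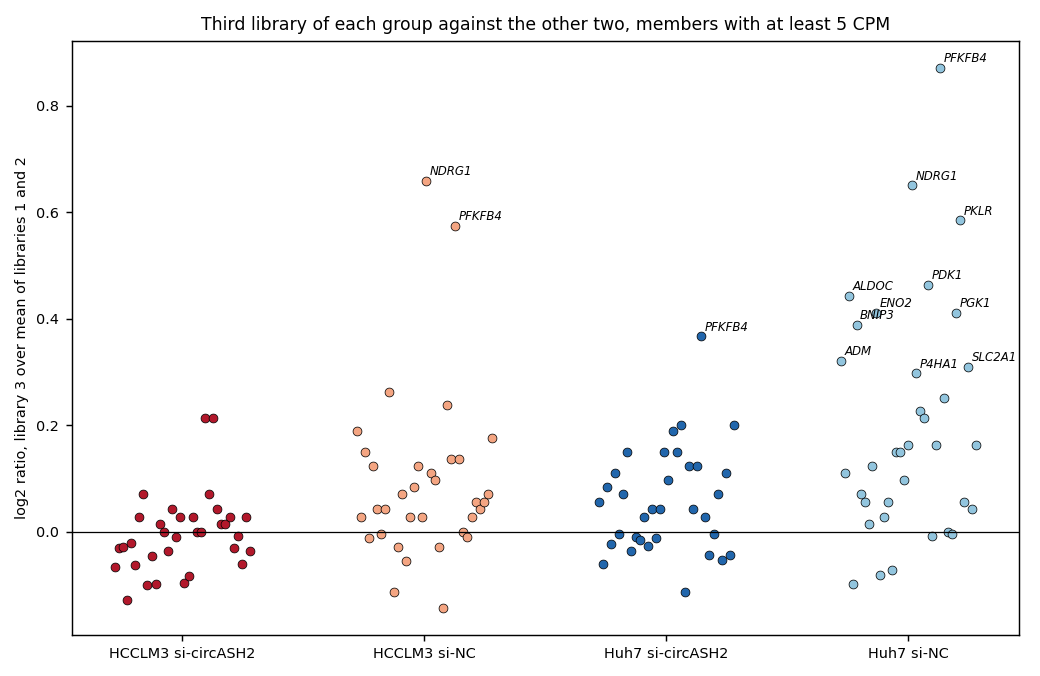
Level in library 3 of each group relative to the mean of libraries 1 and 2 of the same group, on a log2 axis, with 1 point for each member with at least 5 CPM in the group; members past 1.2-fold in either direction are named. The Huh7 si-NC group has 11 named members, the HCCLM3 si-NC group 2, the Huh7 si-circASH2 group 1 and the HCCLM3 si-circASH2 group none.

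With circASH2 knocked down, LDHA was lower and PCK2 higher in both lines, while most other members that changed did so in 1 line or in opposite directions. In HCCLM3, 7 members rose, 8 fell and 29 did not pass (edgeR quasi-likelihood test, Benjamini-Hochberg adjusted p under 0.05 over all features). The members called made up 34.1% of those tested, against 30.6% of all features (15.1% higher and 15.5% lower). The median log2 fold change of the members was 0.00 in HCCLM3, as was that of all features. In Huh7, 9 rose, 9 fell and 26 did not pass. The share was 40.9%, against 31.4% of all features (16.3% higher and 15.1% lower), and the median was 0.02, against 0.01 for all features. Without both si-NC libraries numbered 3 the counts were 9 higher and 9 lower in HCCLM3, and 10 higher and 8 lower in Huh7. In RNA from a whole culture, fewer cells expressing a gene and less RNA per cell cannot be told apart.

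The 8 members called in both lines were 53.3% of the HCCLM3 calls and 44.4% of the Huh7 calls, near the 48.5% and 47.3% over all features. Of these 8, LDHA fell in both, PCK2 rose in both and 6 went opposite ways. SLC2A1, HK1, PFKM and LDHB were lower in HCCLM3 and higher in Huh7, and GAPDH and PDK2 were higher in HCCLM3 and lower in Huh7. Over all features, 587 of the 2511 called in both lines went opposite ways (23.4%), so the share among the members was 75%, on 8 genes. With both si-NC libraries numbered 3 left out, the GAPDH call in HCCLM3 and the PDK2 call in Huh7 were lost. For SLC2A1, LDHB and GAPDH the HCCLM3 call sat near the threshold and was lost in 12, 9 and 7 of 21 alternative analyses. In Huh7 the SLC2A1, PFKM and PDK2 calls were lost in 5, 3 and 7 of 21.

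**Figure D2:**
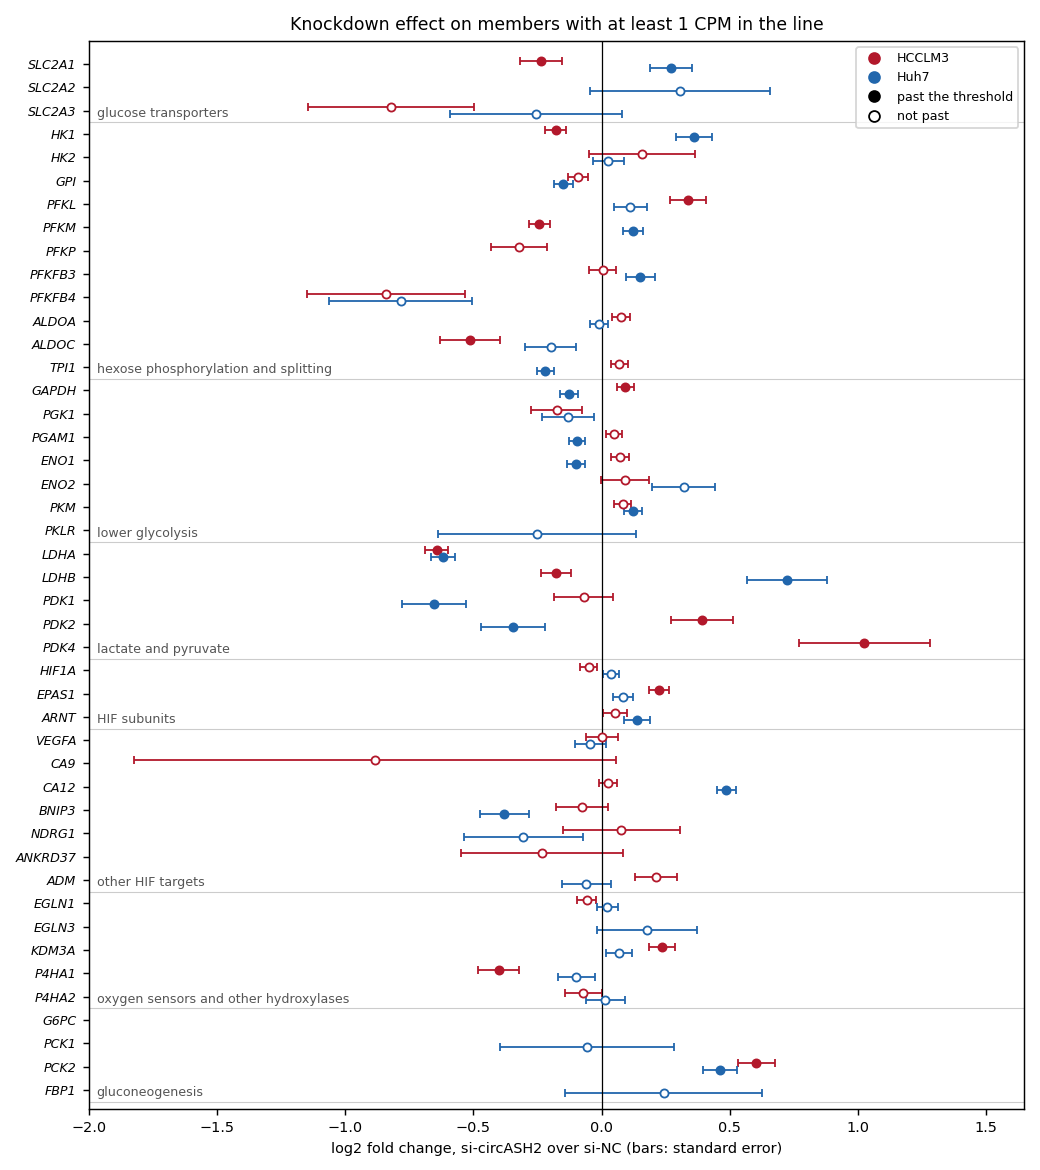
Log2 fold change of si-circASH2 over si-NC for members with at least 1 CPM in the line, grouped by role, with HCCLM3 in red and Huh7 in blue; bars are standard errors and filled points passed the threshold. LDHA lies at -0.64 in HCCLM3 and -0.62 in Huh7, PCK2 at 0.60 and 0.46, and HK1, LDHB and PDK2 lie on opposite sides of 0 in the lines.

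LDHA (chr11:18394388-18408425, plus strand, GENCODE 29 on GRCh38) makes the lactate dehydrogenase subunit that favours lactate production and is a standard HIF and MYC target. In HCCLM3 it had 650, 635 and 639 CPM with si-circASH2, against 952, 993 and 1060 CPM with si-NC. Huh7 cells had 654, 667 and 708 CPM with si-circASH2, against 987, 1009 and 1120 CPM with si-NC. The groups did not overlap in either line. The log2 fold change was -0.64 ± 0.05 in HCCLM3 (SE, edgeR adjusted p = 2.29e-09) and -0.62 ± 0.05 in Huh7 (adjusted p = 3.94e-09), and the effects differed by -0.03 ± 0.06 (adjusted p = 0.88). Over 21 alternatives the value lay between -0.68 and -0.60 in HCCLM3 and between -0.65 and -0.56 in Huh7, always past the threshold. The annotation names 6 pseudogene copies of LDHA, so a part of its reads could have been assigned elsewhere. With si-NC the deposited level per length was 417.9 ± 28.65 FPKM in HCCLM3 and 420.7 ± 31.73 FPKM in Huh7, and the lines did not differ past the threshold in the count test (-0.05, adjusted p = 0.287).

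LDHB, the subunit that favours pyruvate, differed by line. In HCCLM3 it had 938, 935 and 957 CPM with si-circASH2, against 1019, 1102 and 1078 CPM with si-NC, with a log2 fold change of -0.18 ± 0.06 (adjusted p = 0.0388). In Huh7 it had 3.759, 4.672 and 3.503 CPM with si-circASH2, against 2.85, 2.67 and 1.71 CPM with si-NC, and rose by 0.72 ± 0.16 (adjusted p = 0.00283) from a level far below that of HCCLM3. The summed deposited FPKM of both subunits averaged 910 ± 19.3 with si-circASH2 and 1142 ± 44.7 with si-NC in HCCLM3, a ratio of 0.796, and 279 ± 11.6 and 422 ± 31.4 in Huh7, a ratio of 0.662 (exact two-sided permutation p = 0.1 in each line, the smallest that 3 against 3 allows). LDHA made up 29.45% ± 0.781 of that sum with si-circASH2 and 36.56% ± 1.18 with si-NC in HCCLM3, and over 99% of it in every Huh7 library.

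Kinases that turn off pyruvate dehydrogenase moved in different directions. PDK1 had 76.5, 76.7 and 76.9 CPM with si-circASH2 and 78.8, 87.6 and 75.4 CPM with si-NC in HCCLM3, where the groups overlapped and the log2 fold change of -0.07 ± 0.12 did not pass. In Huh7 PDK1 had 36.1, 33.0 and 37.6 CPM with si-circASH2, all of them below the 49.7, 49.5 and 68.6 CPM with si-NC, and fell by 0.65 ± 0.12 (-0.65, adjusted p = 0.003). When both si-NC libraries numbered 3 were left out, it was -0.48 in Huh7 (adjusted p = 1.9e-06). PDK2 had 9.088, 9.023 and 10.54 CPM with si-circASH2, against 7.40, 6.30 and 8.11 CPM with si-NC in HCCLM3, and rose by 0.39 ± 0.12 (adjusted p = 0.0157). In Huh7 PDK2 had 6.401, 4.871 and 5.806 CPM with si-circASH2, against 7.18, 7.31 and 7.21 CPM with si-NC (-0.35 ± 0.13, adjusted p = 0.0381). That Huh7 call was lost in 7 of 21 alternatives, among them the one without both si-NC libraries numbered 3 (-0.35, adjusted p = 0.0655), and exons of PDK2 overlap SAMD14 on the other strand. PDK4, a kinase induced by fasting, had 2.48, 2.06 and 2.15 CPM with si-circASH2 and 0.875, 1.19 and 1.21 CPM with si-NC in HCCLM3, low levels at which the log2 fold change was 1.03 ± 0.25 (adjusted p = 0.00329). PDK4 stayed under 0.5 CPM in Huh7 and did not pass there.

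PCK2 (chr14:24094053-24110598, plus strand), which makes phosphoenolpyruvate in mitochondria and is also a target of the amino acid response factor ATF4, rose in both lines. In HCCLM3 it had 21.5, 23.2 and 22.5 CPM with si-circASH2, against 14.7, 14.9 and 14.6 CPM with si-NC. Huh7 cells had 37.2, 39.0 and 35.3 CPM with si-circASH2, against 24.5, 26.7 and 29.6 CPM with si-NC. No si-circASH2 library was as low as any si-NC library of its line. The log2 fold change was 0.60 ± 0.07 in HCCLM3 (adjusted p = 8.32e-07) and 0.46 ± 0.07 in Huh7 (adjusted p = 9.01e-06), past the threshold in all 21 alternatives in each line. The other gluconeogenic enzymes were scarce. PCK1, the cytosolic carboxykinase, was at 0 in all 6 HCCLM3 libraries and had 1.422, 1.325 and 0.9676 CPM with si-circASH2 and 0.8529, 1.503 and 1.509 CPM with si-NC in Huh7. FBP1, fructose-1,6-bisphosphatase, stayed under 0.4 CPM in HCCLM3 and under 1.4 CPM in Huh7, and neither passed in either line.

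**Figure D3:**
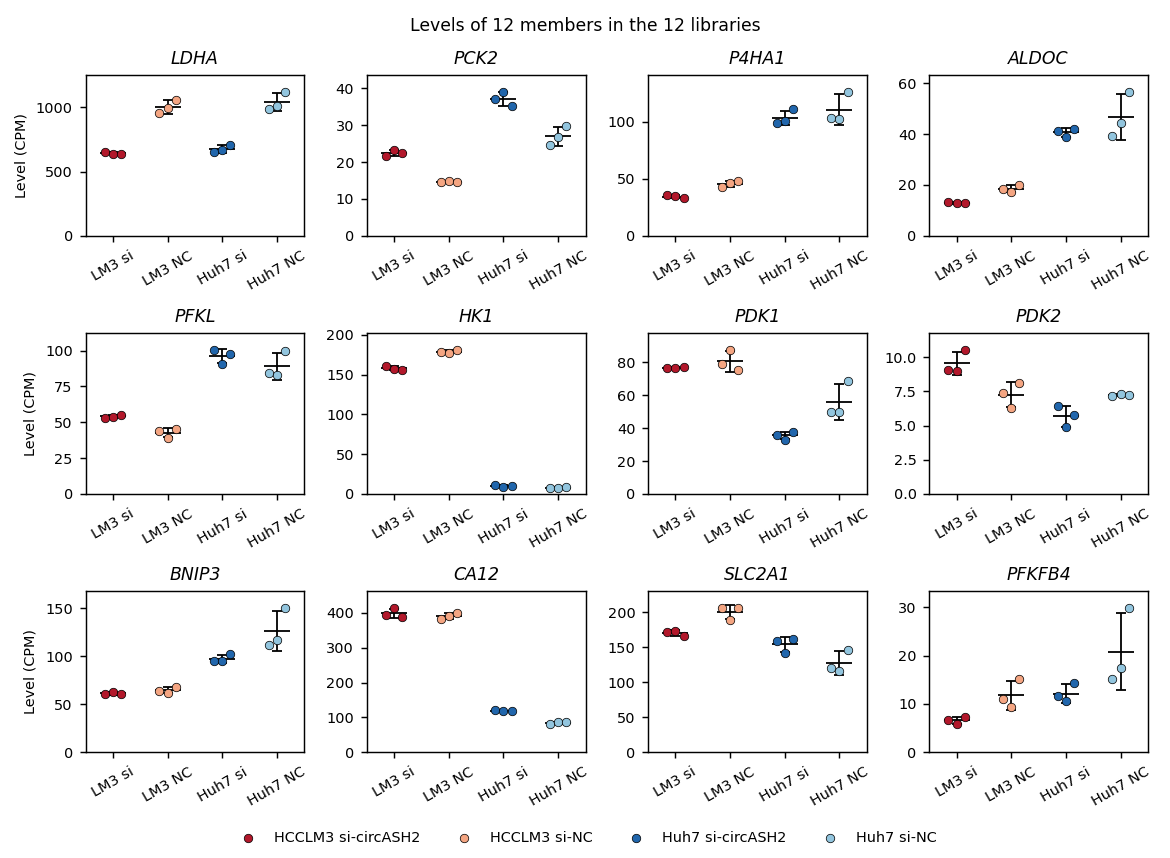
CPM of 12 members in each of the 12 libraries, with HCCLM3 (LM3) si-circASH2, HCCLM3 si-NC, Huh7 si-circASH2 and Huh7 si-NC from left to right; points are libraries 1 to 3 and bars are the mean and SD. The si-circASH2 points for LDHA lie between 635 and 708 CPM in both lines, below all si-NC points at 952 to 1120 CPM, and library 3 is the highest si-NC point in Huh7 for PDK1, BNIP3, SLC2A1 and PFKFB4.

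Glucose uptake genes were led by SLC2A1 (GLUT1), the transporter found in most tissues. It had 171, 174 and 165 CPM with si-circASH2 and 206, 189 and 206 CPM with si-NC in HCCLM3, with no overlap and a log2 fold change of -0.24 ± 0.08 (adjusted p = 0.046). In Huh7 it had 158, 142 and 162 CPM with si-circASH2 and 121, 115 and 146 CPM with si-NC, where library 3 of si-NC overlapped the other group, and the log2 fold change was 0.27 ± 0.08 (adjusted p = 0.0252). It was 0.38 in Huh7 (adjusted p = 6.35e-06) without both si-NC libraries numbered 3. That Huh7 call was lost in 5 of 21 alternatives, among them the Huh7 libraries fitted alone (0.26, adjusted p = 0.138). SLC2A1 shares exon sequence with the antisense SLC2A1-AS1. SLC2A2 (GLUT2), the liver transporter, had counts of 0, 0 and 0 with si-circASH2 and of 0, 3 and 4 with si-NC in HCCLM3, at or near the limit of 3 counts, so no fold is given. It is among the 8 counted as lower, a call lost in 9 of 21 alternatives. In Huh7 it averaged 1.348 ± 0.1525 CPM with si-circASH2 and 1.09 ± 0.205 CPM with si-NC and did not pass. SLC2A3 (GLUT3), a high-affinity transporter, averaged 0.8496 ± 0.3874 CPM with si-circASH2 and 1.503 ± 0.2075 CPM with si-NC in HCCLM3 and did not pass in either line.

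Of the 11 genes from hexose phosphorylation to triose interconversion, 1 rose and 3 fell in HCCLM3, and 3 rose and 2 fell in Huh7. The shares called were 36.4% in HCCLM3 and 45.5% in Huh7, against 30.6% and 31.4% of all features. HK1, the hexokinase of most tissues, had 161, 158 and 156 CPM with si-circASH2, against 179, 178 and 181 CPM with si-NC in HCCLM3 (-0.18 ± 0.04, adjusted p = 0.00224). In Huh7 HK1 had 11.2, 9.41 and 10.2 CPM with si-circASH2, against 7.28, 8.11 and 8.56 CPM with si-NC (0.36 ± 0.07, adjusted p = 0.000331). The libraries separated in both lines, in opposite directions. HK2, the inducible hexokinase of tumours, was near 1 CPM in HCCLM3 and averaged 118 ± 2.96 CPM with si-circASH2 and 116 ± 7.45 CPM with si-NC in Huh7, a log2 fold change of 0.03 ± 0.06 that did not pass.

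PFKL, the liver-type phosphofructokinase, had 53.0, 54.0 and 55.3 CPM with si-circASH2, against 43.9, 39.0 and 45.5 CPM with si-NC in HCCLM3, and rose by 0.34 ± 0.07 (adjusted p = 0.00111). In Huh7 its log2 fold change of 0.11 ± 0.06 did not pass, and it was 0.20 (adjusted p = 0.00683) without both si-NC libraries numbered 3. PFKM, the muscle type, averaged 83.2 ± 3.21 CPM with si-circASH2 and 98.4 ± 0.733 CPM with si-NC in HCCLM3 (-0.24 ± 0.04, adjusted p = 4.07e-05), and 112.5 ± 3.14 CPM with si-circASH2 and 103 ± 1.17 CPM with si-NC in Huh7 (0.12 ± 0.04, adjusted p = 0.0174). Its exons overlap those of SENP1 on the other strand. PFKP, the platelet type, had 166, 172 and 171 CPM with si-circASH2, all below the 212, 213 and 211 CPM with si-NC in HCCLM3, a log2 fold change of -0.32 ± 0.11 that did not pass (adjusted p = 0.0512). When the 6 HCCLM3 libraries were fitted alone it passed (-0.32, adjusted p = 9.92e-10). PFKP was near 0 in Huh7.

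The bifunctional enzymes that make the phosphofructokinase activator fructose 2,6-bisphosphate differed from each other. PFKFB3 had a log2 fold change of 0.00 in HCCLM3 and of 0.15 ± 0.06 in Huh7 (adjusted p = 0.0406), a call lost in 7 of 21 alternatives. PFKFB4, a strong HIF target, had 6.75, 5.77 and 7.25 CPM with si-circASH2, against 10.9, 9.35 and 15.1 CPM with si-NC in HCCLM3. In Huh7 it had 11.55, 10.54 and 14.25 CPM with si-circASH2, against 15.2, 17.4 and 29.9 CPM with si-NC. Each si-circASH2 library was below each si-NC library of its line, yet the wide spread of the si-NC libraries left the log2 fold changes of -0.84 ± 0.31 in HCCLM3 (adjusted p = 0.0732) and -0.78 ± 0.28 in Huh7 (adjusted p = 0.0657) short of the threshold. Without both si-NC libraries numbered 3 they were -0.62 (adjusted p = 0.00135) in HCCLM3 and -0.43 (adjusted p = 0.0114) in Huh7, smaller but past it. That fit leaves out the libraries in which PFKFB4 was highest, and with them most of the spread, so its p-values are not separate support. PFKFB4 also passed in both lines with DESeq2 (adjusted p = 0.0157 in HCCLM3 and 0.0221 in Huh7).

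Among the aldolases ALDOA, the form of most tissues, did not pass in either line. ALDOC, the brain type, had 13.3, 12.8 and 12.8 CPM with si-circASH2, against 18.5, 17.2 and 19.8 CPM with si-NC in HCCLM3, and fell by 0.51 ± 0.12 (-0.51, adjusted p = 0.00393). In Huh7 ALDOC had 41.1, 38.7 and 42.1 CPM with si-circASH2 and 39.1, 44.2 and 56.6 CPM with si-NC, overlapping groups, and its log2 fold change of -0.20 ± 0.10 did not pass. It was -0.04 there (adjusted p = 0.78) without both si-NC libraries numbered 3. TPI1, triosephosphate isomerase, averaged 574 ± 15.4 CPM with si-circASH2 and 669 ± 12.4 CPM with si-NC in Huh7 (-0.22 ± 0.03, adjusted p = 1.09e-05) and did not pass in HCCLM3. GPI, glucose-6-phosphate isomerase, fell in Huh7 as well (-0.15 ± 0.04, adjusted p = 0.00388).

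Shifts in lower glycolysis were mostly small. The median absolute log2 fold change was 0.09 in HCCLM3 and 0.13 in Huh7, against 0.17 and 0.18 over all features. Of the 7 genes, 1 rose and 0 fell in HCCLM3 (14.3%, against 30.6% of all features). In Huh7 1 rose and 3 fell (57.1%, against 31.4% of all features). In HCCLM3 only GAPDH, the dehydrogenase that yields NADH, passed among the 7 genes, with 6326, 6841 and 6148 CPM with si-circASH2 and 6211, 5945 and 5957 CPM with si-NC, groups that overlapped (0.09 ± 0.03, adjusted p = 0.0388). That call was lost without both si-NC libraries numbered 3 (0.08, adjusted p = 0.149). In Huh7 GAPDH had 3375, 3296 and 3406 CPM with si-circASH2, against 3654, 3622 and 3727 CPM with si-NC (-0.13 ± 0.03, adjusted p = 0.00516). The annotation names 62 copies of GAPDH and 13 of the mutase PGAM1, which leaves shifts of this size uncertain. PGAM1 fell by 0.09 (-0.09 ± 0.03, adjusted p = 0.0209) and the enolase ENO1 by 0.10 (-0.10 ± 0.04, adjusted p = 0.0311) in Huh7. The ENO1 call did not hold without both si-NC libraries numbered 3 (-0.06, adjusted p = 0.267). PKM, the pyruvate kinase of most tissues and tumours, had 1895, 1731 and 1747 CPM with si-circASH2, against 1622, 1621 and 1692 CPM with si-NC in Huh7, and rose by 0.12 ± 0.03 (adjusted p = 0.00691). PGK1, phosphoglycerate kinase, averaged 1064 ± 25.9 CPM with si-circASH2 and 1201 ± 28.5 CPM with si-NC in HCCLM3 and did not pass (-0.17, adjusted p = 0.236), nor did it in Huh7. With both si-NC libraries numbered 3 left out, PGK1 was -0.16 in HCCLM3 (adjusted p = 0.00444), and with the 6 HCCLM3 libraries fitted alone it was -0.17 and also passed. ENO2, the neuronal enolase, had log2 fold changes of 0.09 ± 0.10 in HCCLM3 and 0.32 ± 0.12 in Huh7 (adjusted p = 0.0665), neither past the threshold. When both si-NC libraries numbered 3 were left out, it was 0.19 in HCCLM3 (adjusted p = 0.0321) and 0.47 in Huh7 (adjusted p = 0.000118), both past it, and in Huh7 it also passed with DESeq2 (adjusted p = 0.00655). PKLR did not pass in either line.

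Messages of the HIF subunits shifted little. EPAS1, the alpha subunit also called HIF-2 alpha, had 222, 210.5 and 209.6 CPM with si-circASH2, against 185.5, 190.8 and 174.1 CPM with si-NC in HCCLM3, and rose by 0.22 ± 0.04 (adjusted p = 0.000103). In Huh7 its log2 fold change of 0.08 ± 0.04 did not pass. HIF1A had log2 fold changes of -0.05 ± 0.03 in HCCLM3 and 0.04 ± 0.03 in Huh7, neither past the threshold. ARNT averaged 51.0 ± 0.981 CPM with si-circASH2 and 46.3 ± 1.82 CPM with si-NC in Huh7 (0.14 ± 0.05, adjusted p = 0.041), a call lost in 10 of 21 alternatives, among them the one without both si-NC libraries numbered 3 (0.11, adjusted p = 0.189), and did not pass in HCCLM3. These are messages, and HIF protein was not measured.

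None of the 7 other HIF targets passed in HCCLM3 with edgeR, against 30.6% of all features. There 1 had an unadjusted p under 0.05, and DESeq2 and limma on FPKM called 0. In Huh7 1 of the 7 rose and 1 fell, a share of 28.6% near the 31.4% of all features. In Huh7, CA12, a membrane carbonic anhydrase, had 119.6, 118.2 and 118.6 CPM with si-circASH2, against 81.32, 85.48 and 87.40 CPM with si-NC, and rose by 0.49 ± 0.04 (adjusted p = 6.44e-10). In HCCLM3 CA12 averaged 398.5 ± 14.1 CPM with si-circASH2 and 391.5 ± 7.98 CPM with si-NC, groups that overlapped. BNIP3 had 94.43, 94.70 and 101.9 CPM with si-circASH2, against 111.7, 116.8 and 150 CPM with si-NC in Huh7, and fell by 0.38 ± 0.10 (-0.38, adjusted p = 0.0126). Without both si-NC libraries numbered 3 it was -0.24 (adjusted p = 0.00051). The BNIP3 call was lost in 3 of 21 alternatives, among them the Huh7 libraries fitted alone (-0.39, adjusted p = 0.0943). The annotation names 39 copies of BNIP3. VEGFA, the angiogenic growth factor, had log2 fold changes of 0.00 in HCCLM3 and -0.04 in Huh7. NDRG1, a stress-response gene, had 149.5, 163 and 146.3 CPM with si-circASH2 and 123.1, 119.9 and 191.7 CPM with si-NC in HCCLM3, where library 3 of si-NC was the highest of all 6. It did not pass, and without both si-NC libraries numbered 3 it was 0.33 (adjusted p = 0.00028). The vasodilator peptide gene ADM likewise was 0.21 (adjusted p = 0.0512) in HCCLM3 with all libraries and 0.28 (adjusted p = 0.00838) without both si-NC libraries numbered 3. CA9 and ANKRD37 were near or below 1 CPM in most libraries and did not pass.

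Of the 5 oxygen sensors and other hydroxylases, 1 rose and 1 fell in HCCLM3 (40%, against 30.6% of all features). KDM3A, a histone demethylase that needs oxygen, had 50.42, 50.95 and 52.08 CPM with si-circASH2, against 41.58, 43.65 and 45.10 CPM with si-NC in HCCLM3 (0.24 ± 0.05, adjusted p = 0.00103). P4HA1, a collagen prolyl hydroxylase subunit, had 35.47, 34.93 and 33.24 CPM with si-circASH2, against 42.79, 46.20 and 47.94 CPM with si-NC in HCCLM3, and fell by 0.40 ± 0.08 (-0.40, adjusted p = 0.00149). In Huh7 none of the 5 passed with edgeR, against 31.4% of all features, 0 had an unadjusted p under 0.05, and DESeq2 and limma called 0. EGLN1, the main oxygen sensor, had log2 fold changes of -0.06 in HCCLM3 and 0.02 in Huh7.

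The difference between the lines in the knockdown effect was tested directly, as the effect in HCCLM3 minus that in Huh7. It passed for 12 members, 6 in each direction, 27.3% of the 44 tested, against 20.9% of all features (9.6% higher and 11.3% lower). The negative differences were those of CA12 (-0.46 ± 0.05, adjusted p = 5.01e-07), PFKM (-0.36 ± 0.06), HK1 (-0.54 ± 0.08), LDHB (-0.90 ± 0.17), SLC2A1 (-0.51 ± 0.11) and the scarcely detected SLC2A2. The positive ones were those of TPI1 (0.29 ± 0.05, adjusted p = 5.12e-05), GAPDH (0.22 ± 0.05), PDK2 (0.74 ± 0.17), PDK1 (0.58 ± 0.17), ENO1 (0.17 ± 0.05) and PGAM1 (0.14 ± 0.04). The PDK1 difference (adjusted p = 0.039) was lost in 10 of 20 alternatives and that of SLC2A2 in 9 of 20. With both si-NC libraries numbered 3 left out, the counts were 7 higher and 8 lower. ENO1 (0.15, adjusted p = 0.058) and SLC2A2 no longer passed. ALDOC (-0.43), PGK1 (-0.17), P4HA1 (-0.37), BNIP3 (0.20) and NDRG1 (0.39) passed in that fit.

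Within the isozyme sets, HKDC1 took a larger share of the summed hexokinase FPKM in each si-circASH2 library than in any si-NC library of its line. HKDC1, a later-described hexokinase that is no member of the list of 45, had 216.6, 221.7 and 199.9 CPM with si-circASH2, against 173.7, 178.5 and 171.4 CPM with si-NC in HCCLM3 (0.29 ± 0.07, adjusted p = 0.00813). Huh7 cells had 18.26, 22.86 and 21.79 CPM with si-circASH2, against 11.88, 9.55 and 12.82 CPM with si-NC (0.88 ± 0.10, adjusted p = 1.57e-05). Its share of the FPKM of HK1, HK2 and HKDC1 was 56.61% ± 1.11 with si-circASH2 and 48.65% ± 0.74 with si-NC in HCCLM3, and 19.53% ± 1.66 and 12.13% ± 1.504 in Huh7 (exact permutation p = 0.1 in each line, the smallest possible). The sum of the 3 hexokinases was 90.5 ± 3.18 FPKM with si-circASH2 and 86.3 ± 0.948 FPKM with si-NC in HCCLM3. Among the phosphofructokinases of HCCLM3, PFKL made up 16.54% ± 0.221 with si-circASH2 and 11.29% ± 0.756 with si-NC, and PFKP 59.07% ± 0.261 and 64.41% ± 0.744 (exact permutation p = 0.1 for each). In Huh7 the PFKL share was 46.06% ± 1.82 with si-circASH2 and 46.42% ± 2.32 with si-NC.

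**Figure D4:**
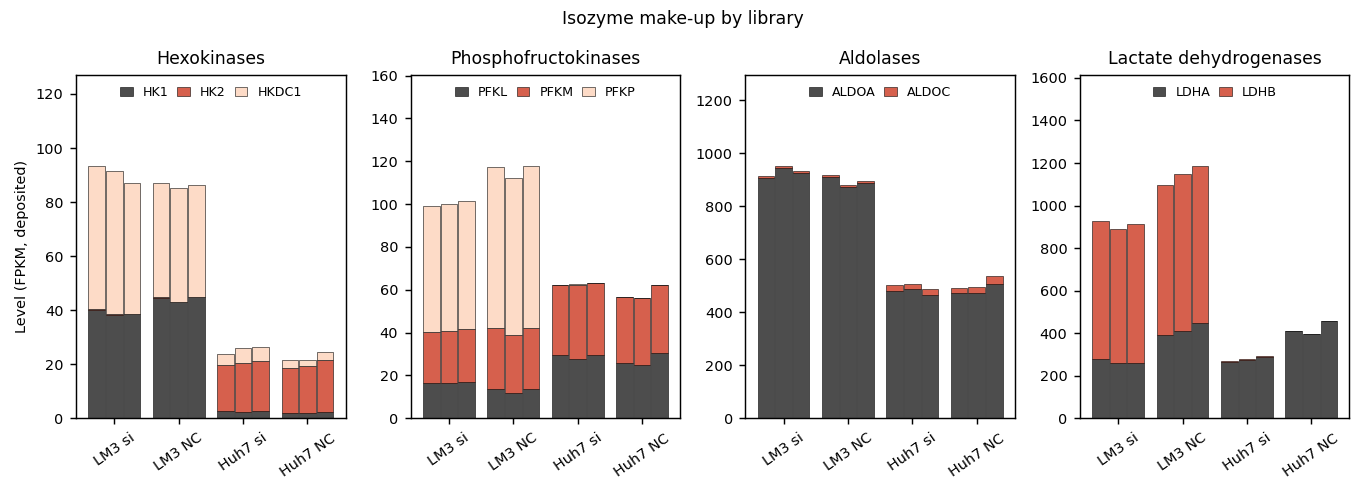
Deposited FPKM of the isozymes of 4 enzyme steps, stacked for each of the 12 libraries, with si-circASH2 left of si-NC within each line. The HKDC1 share of the hexokinases is 56.61% with si-circASH2 and 48.65% with si-NC in HCCLM3, and the lactate dehydrogenase stack averages 910 and 1142 FPKM there.

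Further lists of the same pathways were read in the same fit. Of 16 genes of pyruvate and lactate handling, 3 rose and 5 fell in HCCLM3, and 0 rose and 6 fell in Huh7 (median log2 fold changes of -0.11 in HCCLM3 and -0.13 in Huh7). The shares called were 50% in HCCLM3 and 37.5% in Huh7, against 30.6% and 31.4% of all features, and without both si-NC libraries numbered 3 the HCCLM3 counts were 3 higher and 3 lower. SLC16A1 (MCT1), a lactate and pyruvate carrier, had 52.02, 53.57 and 50.17 CPM with si-circASH2, against 75.32, 74.38 and 73.19 CPM with si-NC in HCCLM3 (-0.52 ± 0.04, adjusted p = 1.32e-09). In Huh7 it had 144.1, 147.7 and 152.5 CPM with si-circASH2, against 186.7, 189.2 and 178.7 CPM with si-NC (-0.32 ± 0.04, adjusted p = 7.15e-07). The libraries did not overlap in either line. The pyruvate dehydrogenase subunit PDHA1 fell in both lines (-0.11 in HCCLM3 and -0.19 in Huh7), with the HCCLM3 call lost in that fit (adjusted p = 0.0917). The mitochondrial pyruvate carrier MPC2 also fell in both (-0.19 in HCCLM3 and -0.21 in Huh7). The subunit DLAT (-0.24) and the carrier MPC1 (-0.29) fell in Huh7, and the phosphatase PDP1 fell (-0.25) and its regulator PDPR rose (0.36) in HCCLM3.

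Of 13 tested other glycolysis genes, 2 rose and 2 fell in HCCLM3 (30.8%, against 30.6% of all features) and 5 rose in Huh7 (38.5%, against 31.4%). When both si-NC libraries numbered 3 were left out, the counts were 1 higher and 1 lower in HCCLM3, where PFKFB2 (adjusted p = 0.124) and TIGAR (adjusted p = 0.102) no longer passed, and 4 higher in Huh7. PFKFB2 rose in both lines (0.16 ± 0.05 in HCCLM3 and 0.49 ± 0.06 in Huh7). GCKR, a regulatory protein of liver sugar metabolism, had 9.054, 10.35 and 9.335 CPM with si-circASH2, against 16.65, 16.84 and 16.51 CPM with si-NC in HCCLM3, and fell by 0.80 ± 0.09 (-0.80, adjusted p = 2.97e-07). TIGAR, a fructose bisphosphatase, fell in HCCLM3 (-0.18) and rose in Huh7 (0.27), and ENO3 rose in Huh7 (0.44). Of 10 tested other transporters, SLC2A13 rose (0.38) and SLC2A8 fell (-0.25) in HCCLM3 (20%, against 30.6% of all features). In Huh7 0 passed, against 31.4% of all features, 0 had an unadjusted p under 0.05, and DESeq2 and limma called 0. Of 22 gluconeogenesis and glycogen genes, 7 rose and 3 fell in HCCLM3 (45.5%, against 30.6% of all features), and 4 rose and 4 fell in Huh7 (36.4%, against 31.4%). Without both si-NC libraries numbered 3 the HCCLM3 counts were 5 higher and 2 lower. Glycogen synthase GYS1 rose in Huh7 (0.44 ± 0.05, adjusted p = 4.62e-07), and the glycogen phosphorylase PYGB rose in both lines (0.20 in HCCLM3 and 0.18 in Huh7). UGP2 rose (0.22) and the liver phosphorylase PYGL fell (-0.33) in HCCLM3. The transaminase GOT2 fell in both lines (-0.09 in HCCLM3, lost in that fit with adjusted p = 0.195, and -0.25 in Huh7), and in Huh7 CREB3L3 fell (-0.48) and FOXO1 rose (0.31).

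Of 29 other HIF target genes, 5 rose and 5 fell in HCCLM3 (34.5%, against 30.6% of all features), and 4 rose and 2 fell in Huh7 (20.7%, against 31.4%). With both si-NC libraries numbered 3 left out, the counts were 7 higher and 6 lower in HCCLM3, and 6 higher and 1 lower in Huh7. VLDLR, a lipoprotein receptor, had 10.75, 11.05 and 10.14 CPM with si-circASH2, against 20.89, 18.87 and 22.73 CPM with si-NC in HCCLM3 (-0.97 ± 0.09, adjusted p = 6.83e-09), and 10.43, 10.93 and 10.34 CPM with si-circASH2, against 14.04, 16.33 and 15.71 CPM with si-NC in Huh7 (-0.54 ± 0.09, adjusted p = 3.99e-05). The lysyl hydroxylase PLOD2 fell in both lines (-0.37 in HCCLM3 and -0.21 in Huh7), and its Huh7 call was the one lost in that fit (-0.12, adjusted p = 0.0559). WSB1 rose in both lines (0.19 in HCCLM3 and 0.22 in Huh7), as did STC2 (0.16 and 0.17), and HMOX1 rose in HCCLM3 (0.23). Of 14 genes of the HIF system, SIAH2 (0.36) and CREBBP (0.18) rose and EP300 (-0.13) fell in HCCLM3, and SIAH1 fell in Huh7 (-0.21), a call lost without both si-NC libraries numbered 3 (-0.17, adjusted p = 0.078). The shares called were 21.4% in HCCLM3 and 7.14% in Huh7, below the 30.6% and 31.4% of all features. Of 8 glucose-responsive and MYC regulators, 2 rose and 1 fell in each line (37.5%, against 30.6% of all features in HCCLM3 and 31.4% in Huh7). TXNIP, a brake on glucose uptake, had 4.781, 5.805 and 5.104 CPM with si-circASH2, against 2.658, 3.08 and 3.336 CPM with si-NC in HCCLM3 (0.79 ± 0.15, adjusted p = 0.000521), and rose in Huh7 by 0.29 ± 0.09 (adjusted p = 0.0215). MXD4, a repressor that competes with MYC for MAX, rose by 0.57 ± 0.11 in HCCLM3 and by 1.08 ± 0.10 in Huh7. MLXIPL (ChREBP), the glucose-sensing factor of liver, fell in HCCLM3 (-0.64) and MLXIP in Huh7 (-0.21).

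The lines themselves were set against each other with si-NC, HCCLM3 over Huh7. Of the 44 members 20 were higher in HCCLM3, 18 lower and 6 not past the threshold, 86.4% called, against 85.2% of all features (41.6% higher and 43.6% lower), so the share was near that of the whole table. The line and any difference in its culture cannot be told apart. Liver and widespread isozymes did not divide cleanly between the lines. Per length, HK1 had 44.10 ± 1.02 FPKM in HCCLM3 and 2.049 ± 0.264 FPKM in Huh7 (log2 fold change in the count test 4.49 ± 0.06), while HK2 had 0.1961 ± 0.0388 FPKM in HCCLM3 and 17.74 ± 1.18 FPKM in Huh7 (-6.49 ± 0.10). LDHB had 724.1 ± 18.9 FPKM in HCCLM3 and 1.380 ± 0.349 FPKM in Huh7 (8.79 ± 0.10), and PFKP 74.40 ± 1.16 and 0.07158 ± 0.0682 FPKM (9.82 ± 0.24). Liver pyruvate kinase PKLR had 0.04180 ± 0.0439 FPKM in HCCLM3 and 1.782 ± 0.457 FPKM in Huh7, small beside the 1046 ± 30.6 and 627.5 ± 19.0 FPKM of PKM. PCK1 was at 0 in every HCCLM3 library and averaged 1.29 CPM in Huh7, so it was at least 12.3-fold lower in HCCLM3, taking 3 counts per library as the limit (0.105 CPM). The other phosphofructokinases, PFKL and PFKM, had log2 fold changes of -1.06 ± 0.07 (lower in HCCLM3) and -0.07 (adjusted p = 0.0969). Among the HIF subunits, HIF1A (-0.56 ± 0.03) and EPAS1 (-0.79 ± 0.04) were lower in HCCLM3 and ARNT (1.025 ± 0.049) was higher. The other HIF targets went both ways, 3 of 7 higher and 2 lower (71.4% called, against 85.2% of all features). So did the oxygen sensors and other hydroxylases, 2 of 5 higher and 3 lower (100%). EGLN1 (1.38 ± 0.04), CA12 (2.21 ± 0.04), PGK1 (2.22 ± 0.10) and ENO2 (2.37 ± 0.11) were higher in HCCLM3. P4HA1 (-1.28 ± 0.08), BNIP3 (-0.97 ± 0.10), VEGFA (-0.42 ± 0.06), KDM3A (-0.53 ± 0.05) and ALDOC (-1.33 ± 0.11) were lower. EGLN3, an oxygen sensor that HIF itself induces, had counts of 0, 2 and 8 in HCCLM3 si-NC, near the limit of 3 counts, against 193, 186 and 193 in Huh7 si-NC. Its fitted log2 fold change of -5.76 was -7.35 without both si-NC libraries numbered 3, and that of PFKP, near 0 in Huh7, was 10.60 in place of 9.82, so the size of both is uncertain. NDRG1 passed in that fit (0.22, adjusted p = 0.00397).

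**Figure D5:**
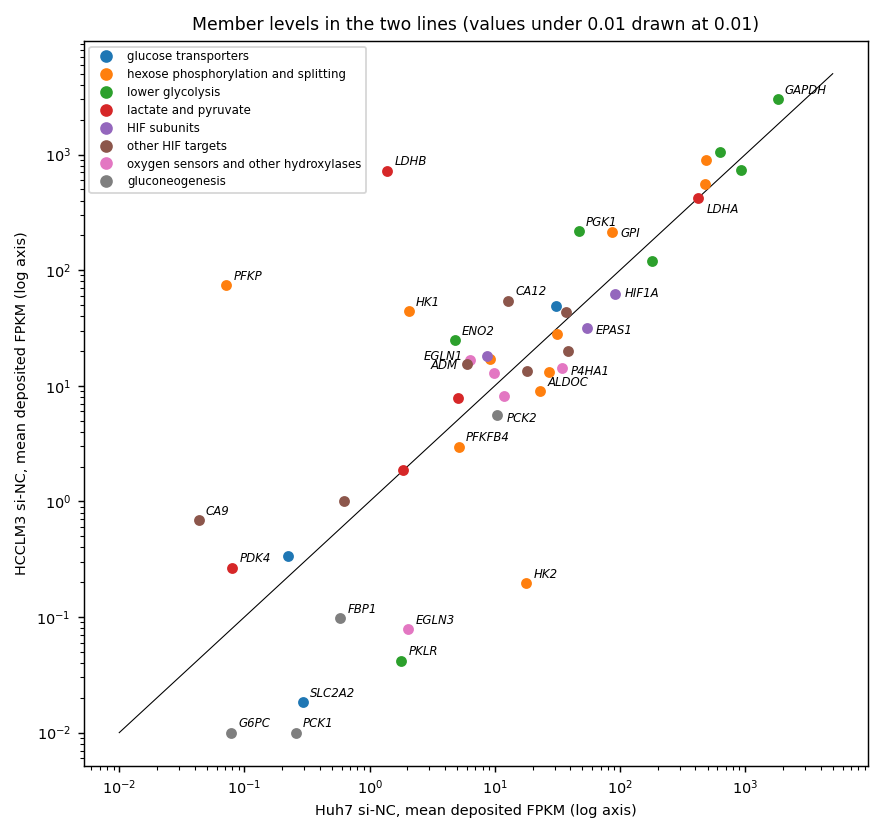
Mean deposited FPKM of the members in the si-NC libraries of HCCLM3 and Huh7 on log10 axes, with values under 0.01 drawn at 0.01. LDHB, PFKP and HK1 lie on the HCCLM3 side and HK2 and PKLR on the Huh7 side of the diagonal, and LDHA (417.9 FPKM in HCCLM3, 420.7 in Huh7) lies close to it.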

How the data were processed

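RNA was sequenced from 12 libraries of 2 cell lines, 4 groups of 3. A SMARTer mRNA kit was used for the libraries, per the labels' protocols. The authors deposited gene counts (whole numbers, not normalized) and FPKM values. Per the submitters' processing notes the builds hg38, GRCm38 and mm10 are named, with no role given. The sources used here do not give the aligner, the counter or the use of strand, so overlapping genes and processed copies are uncertain. Of 23583 features 2206 were at 0 throughout and 3854 carried assembler names with no symbol (2505 of these were tested). Counts of 1 (1938) were rarer than counts of 2 (6826).

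Counts were tested with edgeR 4.0.16 in R 4.3.3 (robust quasi-likelihood, TMM factors, a minimum count of 10, 1 coefficient per group over all 12 libraries, 8 residual degrees of freedom, common variation 5.65%), with Benjamini-Hochberg adjustment over 16946 features at 0.05. CPM are TMM-scaled. Deposited FPKM served for levels and shares between genes, with exact permutation tests (SciPy 1.17.1). The fit was tested on simulated data. Alternatives were other scalings, DESeq2 1.42.0, no filter, the comparison's libraries alone, a replicate block, limma 3.58.1 on log2(FPKM + 0.1) and log2(FPKM + 1), and leaving out each library. Promoters came from RefSeq and gene positions from GENCODE 29. The members and lists were chosen with earlier results of these data known. Values of each library were given for members past the threshold with a log2 change of at least 0.3 and at least 5 CPM, for isozyme sets, and for up to 4 genes of smallest p in each further list. Values after ± are SDs between the libraries of a group for levels, sums and shares, and edgeR standard errors for log2 fold changes. A few genes of the further lists are not reported here.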

Additional observations from a re-analysis of the deposited data

Results flagged for a closer look

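The effect of si-circASH2 differed between the lines, by the test of the difference itself (HCCLM3 minus Huh7, log2), for 12 members. The difference was -0.51 for SLC2A1, -0.54 for HK1, -0.36 for PFKM, -0.90 for LDHB and -0.46 for CA12. It was 0.29 for TPI1, 0.22 for GAPDH, 0.14 for PGAM1, 0.17 for ENO1, 0.58 for PDK1 and 0.74 for PDK2. The value of -4.62 for SLC2A2 rests on counts of 0 to 4 in HCCLM3, and was lost in 9 of 20 alternatives. The value for PDK1 was lost in 10 of 20, and that for ENO1 in 1.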

How the results depend on the processing

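No result reversed under any alternative run. Of the values for single members, 3450 kept their side of the threshold, 80 passed it only under an alternative and 122 were lost under one. With the libraries of the comparison fitted alone, 11 members were higher and 12 lower in HCCLM3, against 7 and 8, and with limma on FPKM plus 0.1 the lower ones were 5. Leaving out 1 library gave 5 to 8 higher and 5 to 11 lower in HCCLM3, 6 to 10 higher and 6 to 9 lower in Huh7, 4 to 7 higher and 5 to 10 lower for the difference between lines, and 19 to 20 higher and 17 to 18 lower between the lines. The 5 lower in HCCLM3 came without si-NC replicate 3, si-circASH2 replicate 1 or si-circASH2 replicate 3 of HCCLM3, and the 10 lower for the difference without Huh7 si-NC replicate 3. The cause was not tested. Same-numbered libraries correlated between -0.034 and 0.041, so the numbers were not taken as pairs. With the replicate block 8 members were higher and 9 lower in HCCLM3, 9 and 10 in Huh7, 8 and 7 for the difference, and 19 and 18 between the lines. Members under 1 CPM in a line are limited by depth there. Among them were SLC2A2, PCK1, FBP1 and EGLN3 in HCCLM3, and PFKP, PDK4 and CA9 in Huh7.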
